A study of Homo sapiens with 6 samples.

Results

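The genes described here encode proteins of the centrosome and its centrioles. They were taken from the authors' deposited comparison table by symbol: every gene whose name begins with CEP and a number, except CEP55, together with PLK4, STIL, SASS6, CENPJ, PCNT, CDK5RAP2, PCM1, NEDD1, NIN and the gamma-tubulin complex genes TUBGCP2 to TUBGCP6. The rule took 44 of the 13008 genes of that table and used no measured value, but it was chosen with earlier results of these data known. All 44 had enough signal to be tested. CEP170P1 is a pseudogene of CEP170 and came in by its name. The grouping by role below follows textbook knowledge.

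The study was RNA-seq of polyadenylated RNA from hTERT-RPE1 cells, a human line derived from retinal pigment epithelium and immortalised with telomerase, in which tetracycline analogues switch on FLAG-tagged FOXM1c. FOXM1, a forkhead factor, is known for activating genes of the G2 and M phases. The dox group (3 libraries, genotype label FOXM1 overexpression) had received doxycycline at 1 µg/mL every 24 h for 48 h. The no dox group (3 libraries) had received none and carries the same line name but the genotype label WT, so whether its cells hold the transgene rests on the names alone. No cells given doxycycline without the transgene were analysed here, so drug and transgene cannot be told apart. The labels do not say whether the line is 1 clone or whether replicates are separate cultures, so the p-values reflect the spread of these libraries alone, which could be technical.

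Centrioles are short microtubule barrels that duplicate once per cell cycle. The kinase PLK4 starts a new centriole with STIL and SASS6, which build the cartwheel, and CENPJ lengthens its wall. CEP97 and its partner CCP110 cap the growing end, appendages mark the older centriole and allow it to form a cilium, and the pericentriolar material holds the gamma-tubulin complexes that nucleate microtubules. A fibrous linker ties the centriole pairs together until mitosis. Many of these genes are transcribed periodically through the cell cycle, in part through the E2F and CHR promoter elements that the DREAM and MuvB complexes bind, and FOXM1 is known to join MuvB at CHR elements.

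FOXM1 itself rose from 5009, 4383 and 4292 normalised counts without doxycycline (replicates 1, 2 and 3) to 65289, 66830 and 74976 with it, 15.1-fold (limma adjusted p = 4.49e-06). Normalised counts are the authors' depth-equalised values, and the libraries held 15094498 to 49882123 reads. Libraries with the same replicate number deviated together across genes, so values with that number as a block are given beside those without it. Of the markers of retinal pigment epithelium, RPE65 (0.0457 to 0.220 FPKM), RLBP1, TYR, TYRP1, DCT and RGR (each 0 in at least 1 library and at most 0.0268 FPKM) were near 0, while MITF (2.06 to 2.23) and OTX2 (1.91 to 3.14) were present. KRT8 (up to 33.4) and KRT18 (34.6 to 65.2) were present and both rose with the block. Their summed counts rose by 0.31, 0.30 and 0.30 on the log2 scale in pairs 1, 2 and 3. The part of this in the members' values was not tested. The epithelial markers CDH1 and EPCAM were at or near 0 (at most 0.0106). Of the mesenchymal markers VIM was high (254 to 396). FN1 (71.4 to 89.3), THY1 (22.2 to 34.9), PDGFRB (9.42 to 13.1) and COL1A1 (5.64 to 12.7) were present, while COL1A2 and COL3A1 were near 0 (at most 0.0299). PTPRC (leukocytes) and CDH5 (endothelium) were at most 0.0103.

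The promoters of the members were searched for these elements. RefSeq start sites on GRCh38.p14 gave windows from 250 bases before to 50 after the start for 36 of the 44 members, with 49 windows in all. The first sequences are the 250 bases upstream of PLK4 (1 of its start sites) and CEP97, the 2 members called lower in the authors' deposited table. The capitals in CEP97 mark CCAAT, at position -60 from the start, overlapping its reverse complement ATTGG at -57. In PLK4 no searched motif lies in these 250 bases, so none is in capitals. The PLK4 sequence is at chr4:127880643-127880892 and the CEP97 sequence at chr3:101724364-101724613, both on the plus strand and written 5′ to 3′.
PLK4: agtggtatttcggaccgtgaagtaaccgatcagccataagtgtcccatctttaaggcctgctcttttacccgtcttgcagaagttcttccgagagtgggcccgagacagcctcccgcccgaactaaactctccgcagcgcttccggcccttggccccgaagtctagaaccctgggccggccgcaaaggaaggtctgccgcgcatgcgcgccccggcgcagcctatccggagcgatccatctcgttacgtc
CEP97: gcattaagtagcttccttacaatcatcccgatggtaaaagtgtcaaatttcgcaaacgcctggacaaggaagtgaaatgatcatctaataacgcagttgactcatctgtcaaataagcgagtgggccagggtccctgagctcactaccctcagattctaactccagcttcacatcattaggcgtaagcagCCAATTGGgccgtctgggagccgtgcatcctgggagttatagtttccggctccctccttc

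The next sequences show, in 30 bases each, the CHR or E2F-like letters near the start of members that passed the test with the block. Capitals mark the CHR letters TTTGAA or their reverse complement in PLK4 (position 39 after the start, chr4:127880913-127880942, plus strand), CDK5RAP2 (position 45, chr9:120580118-120580147, minus strand) and CEP76 (position 19, chr18:12702742-12702771, minus strand). They mark the E2F-like letters TTCCCGC or their reverse complement in CEP19 (position -102, chr3:196712334-196712363, minus strand) and CEP68 (position -64, chr2:65056341-65056370, plus strand). Each is written 5′ to 3′ along the gene.
PLK4 at the CHR letters: ggcaagcggcgggagattTTCAAAatggga
CDK5RAP2 at the CHR letters: cgggaaagatggcggcgtctgtggTTTGAA
CEP76 at the CHR letters: tgtccgccactgTTTGAAaacagttggcgc
CEP19 at the E2F-like letters: gcccccaagggTTCCCGCgcggcgtggggc
CEP68 at the E2F-like letters: agggagaagggGCGGGAAgaagggcgtggt

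On both strands, TTTGAA was found in 15 of the 49 member windows (30.6%, 14 members), against 10.5% of the windows of all genes of the comparison table and 15.2% of all RefSeq windows. TTCCCGC was in 11 windows (22.4%, 10 members), against 9.63% and 6.55%. The forkhead-like letters TGTTTAC were in 3 windows (6.12%; CEP63, CEP44 and TUBGCP6), against 2.50% and 3.42%, and none of those 3 genes passed the test with the block. CCAAT was in 18 windows (36.7%), near the 34.7% of windows of the table's genes. No searched motif contains another. A match is a description of letters and not a binding site. Of the 11 members that passed with the block only 10 had a window. Among those 10, TTTGAA was in 3 members, TTCCCGC in 2 and CCAAT in 3. Among all 36 members with a window these numbers were 14, 10 and 15. Of the 36 members with a window 10 passed, so most did not, whether or not they held CHR or E2F-like letters. Passing with and without a motif was not compared by a test, and the 3 genes with forkhead-like letters are too few to compare.

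Doxycycline was accompanied by small, mostly downward differences in the centrosome and centriole genes. Without the block 0 of 44 members passed (limma, adjusted p under 0.05 over 13153 genes), where 0.540% of all tested genes did. The smallest adjusted p was 0.0650, for CEP97, and 7 members had an unadjusted p under 0.05, a share near the 13.0% of all genes. In the authors' deposited table, a likelihood ratio test, 2 members were called, CEP97 and PLK4, both lower, where that table calls 2.78% of its genes, 1.52% lower.

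With the replicate number as a block 11 of the 44 members passed, where 22.5% of all tested genes did. In direction they were uneven: 9 fell (20.5%, where 12.4% of all genes fell) and 2 rose (4.55%, where 10.2% rose). The 9 that fell were CEP97, CEP128, CEP78, PLK4, CEP350, CEP57L1, CDK5RAP2, SASS6 and CEP19, and the 2 that rose were CEP76 and CEP68. CEP97, CEP128, CEP78 and PLK4 passed in all 6 settings run with the block, and CEP76 and CEP68 in 2. The 6 settings count the blocked fit that made these calls. For CEP76 and CEP68 the other setting was TMM scaling, which kept all 11 calls. Without replicate 2 only 4 members fell and 0 rose with the block, and 10.8% of all genes were then called.

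The median change over the 44 members was -0.09 on the log2 scale, against -0.0022 over all tested genes, and 31 members (70.5%) were below 0 against 50.6% of all genes. The median was -0.13 in pair 1, -0.07 in pair 2 and -0.08 in pair 3. The dox and no dox libraries did not overlap in 11 members, and in 19.1% of all tested genes. In 9 of the 11 the dox libraries were the lower and in 2 the higher, while over all genes the numbers were 1319 lower and 1188 higher. In 20 members all 3 pairs were lower (45.5%, with 28.5% of all genes) and in 7 all 3 were higher (15.9%, with 26.5%). These counts describe the list and were not tested. Strand use in counting is unknown here, which leaves values uncertain for members that overlap another listed gene (CEP19 with PIGX, CEP76 with PSMG2, CEP68 with RAB1A, TUBGCP2 with ZNF511, TUBGCP4 with ZSCAN29, CEP164 with BACE1 and others), and for CEP170 and its copy CEP170P1.

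**Figure D1:**
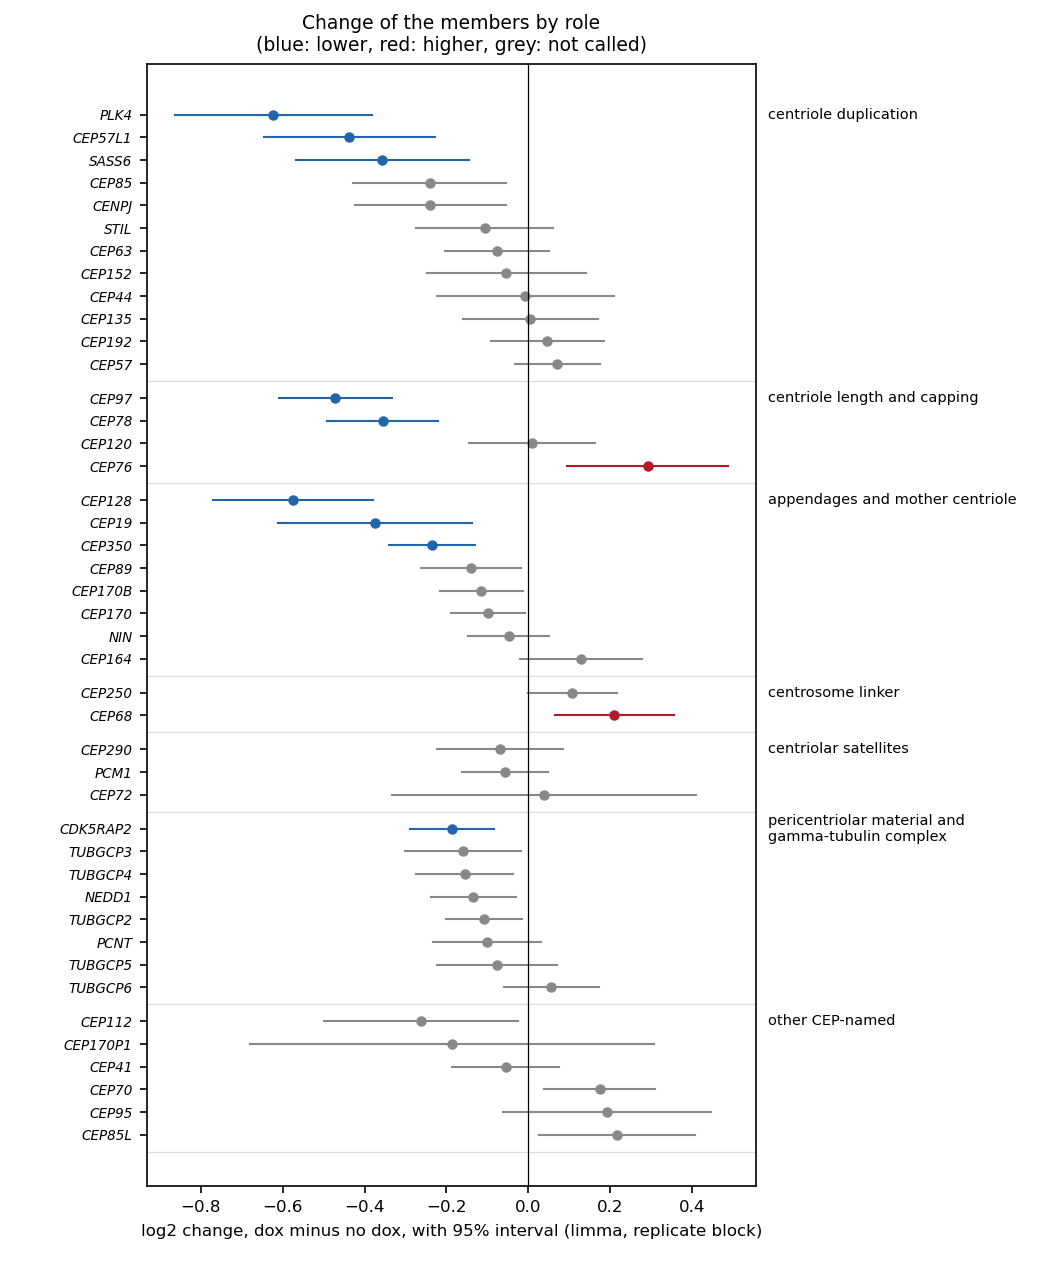
Change of 43 of the 44 members, dox minus no dox, on the log2(normalised count + 1) scale, grouped by role; points are the values from the fit with the replicate block, bars its unadjusted 95% intervals, and coloured points passed the adjusted test over all genes. The 9 members that fell lie in 4 of the role groups, from -0.62 (PLK4) to -0.19 (CDK5RAP2), and 2 rose, CEP76 and CEP68.

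Markers of cell cycle phase moved in the same libraries. Of 13 G1/S and S phase markers 9 fell and 0 rose with the block (limma; without it 0 passed and 9 had an unadjusted p under 0.05, and the authors' deposited table calls 8), with a median change of -0.55, and their summed normalised counts were 28660 to 35420 in dox and 37163 to 42372 in no dox libraries, without overlap. Of 13 G2 and M phase markers 8 fell and 1 rose with the block (without it 0 passed and 6 had an unadjusted p under 0.05, and the authors' deposited table calls 3), with a median of -0.34, and sums of 36568 to 53688 in dox and 53046 to 60699 in no dox, with an overlap. Over all tested genes 12.4% fell and 10.2% rose with the block, and 13.0% had an unadjusted p under 0.05 without it. The authors' deposited table calls 2.78% of its genes. None of the 26 markers was at 0. The sums differed most in pair 1 (-0.56 and -0.59 on the log2 scale), where the median of the members also differed most. Of the members that fell, PLK4, CEP128, CEP57L1, CEP78 and SASS6 differed most in pair 1. CEP97 was alike in pairs 1 and 3 (-0.53 in both). In CEP350 (-0.20, -0.24 and -0.27), CEP19 (-0.31, -0.45 and -0.37) and CDK5RAP2 (-0.11, -0.20 and -0.24) pair 1 differed least. In bulk RNA, fewer cells in a phase and less RNA per cell cannot be told apart, and the part of these markers in the members' values was not tested.

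Among the genes of centriole duplication, PLK4 (ENSG00000142731; chromosome 4 from 128802016 to 128820350 of hg19), the kinase that starts duplication, had 405, 652 and 642 normalised counts in the dox libraries, replicates 1, 2 and 3 in that order, while the no dox libraries had 823, 895 and 844. All dox values were below all no dox values, with dox replicate 1 the lowest by far. The means were 567 ± 140.1 and 854 ± 36.8 (SD, n = 3 each). The log2 change was -0.62 (SE 0.18, a fitted change of -35.1%; limma adjusted p = 0.184), and with the block PLK4 fell (limma adjusted p = 0.00335; pairs -1.02, -0.46 and -0.39). Without dox replicate 1 the change was -0.40. In the authors' deposited table its log2 change is -0.58 with an adjusted p of 0.0424.

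STIL, the partner that PLK4 phosphorylates to recruit the cartwheel protein, had 761, 999 and 1003 normalised counts in dox and 960.0, 1033 and 959 in no dox libraries. Only dox replicate 1 stood below the rest, and the groups overlapped. Its change was -0.11 (SE 0.12; limma adjusted p = 0.808, and 0.348 with the block), and without dox replicate 1 it was 0.025. STIL (ENSG00000123473) lies on chromosome 1 from 47715811 to 47779819 of hg19.

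SASS6 (ENSG00000156876; chromosome 1 from 100549119 to 100598511), whose protein forms the cartwheel, had 161, 271 and 207 normalised counts in dox and 229, 312 and 265 in no dox. The groups overlapped, but each dox library was below the no dox library of its number (pairs -0.51, -0.20 and -0.36). SASS6 fell with the block (-0.36, block SE 0.09, limma adjusted p = 0.0234) and did not pass without it (limma adjusted p = 0.546). It was called in 3 of the 6 settings with the block, and its change was -0.17 without dox replicate 1 and -0.55 without dox replicate 2.

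CENPJ, which adds tubulin to the growing centriole wall, had 220.5, 462 and 305 normalised counts in dox and 284, 492 and 366 in no dox. Replicate 2 was the highest and replicate 1 the lowest in both groups, and this difference between replicates was larger than that between the groups. Its change was -0.24 (limma adjusted p = 0.825, and 0.0639 with the block; pairs -0.37, -0.09 and -0.26), and without dox replicate 1 it was 0.016. CENPJ (ENSG00000151849) lies on chromosome 13 from 25457171 to 25497018.

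The PLK4 difference was set against those of the other core genes within each library, a comparison chosen after the values were seen. Minus the STIL difference it was -0.52 on the log2 scale (pairs -0.69, -0.41 and -0.46). Against SASS6 it was -0.27 (pairs -0.51, -0.25 and -0.03) and against CENPJ -0.38 (pairs -0.66, -0.36 and -0.13). The PLK4 change was the more negative in every pair, by little against SASS6 in pair 3. An exact permutation test used the 20 assignments of libraries to groups and ignored the replicate numbers. This permutation test gave p = 0.1 against STIL, 0.2 against SASS6 and 0.3 against CENPJ. Its smallest possible p is 0.1, so it could not have passed and does not decide whether PLK4 differs from them.

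CEP57L1 (ENSG00000183137; chromosome 6 from 109416313 to 109485135), a paralog of the microtubule-binding CEP57, had 283, 349.7 and 325 normalised counts in dox and 439, 494 and 369.7 in no dox. All dox libraries were below all no dox libraries, and CEP57L1 fell with the block (-0.44, block SE 0.09, limma adjusted p = 0.00918; 0.225 without it), in 4 of 6 settings. CEP57 itself had 1241, 1748 and 1646 in dox and 1196, 1647 and 1564 in no dox, a change of 0.07 that did not pass with the block (limma adjusted p = 0.310). The interval of the CEP57 change with the block was -0.03 to 0.17, while that of CEP57L1 was -0.65 to -0.23. Their difference was not tested. CEP57 overlaps FAM76B in the genome.

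The other duplication genes did not pass in either fit. CEP152, the scaffold that brings PLK4 to the centriole, had 190.3, 416 and 211 normalised counts in dox and 200.3, 398 and 235 in no dox. Replicate 2 was far above the others in both groups. Its change was -0.05 (interval with the block -0.25 to 0.14). CEP192, the other PLK4 receptor, lay at 0.05, CEP63, the partner of CEP152, at -0.08, the cartwheel-binding CEP135 at 0.00 and CEP44 at -0.01. CEP85, a STIL-binding protein, lay at -0.24, lower in all 3 pairs (-0.46, -0.24 and -0.02; limma adjusted p = 0.0662 with the block). Over the 12 duplication genes the median change was -0.09, 3 fell and 0 rose with the block.

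**Figure D2:**
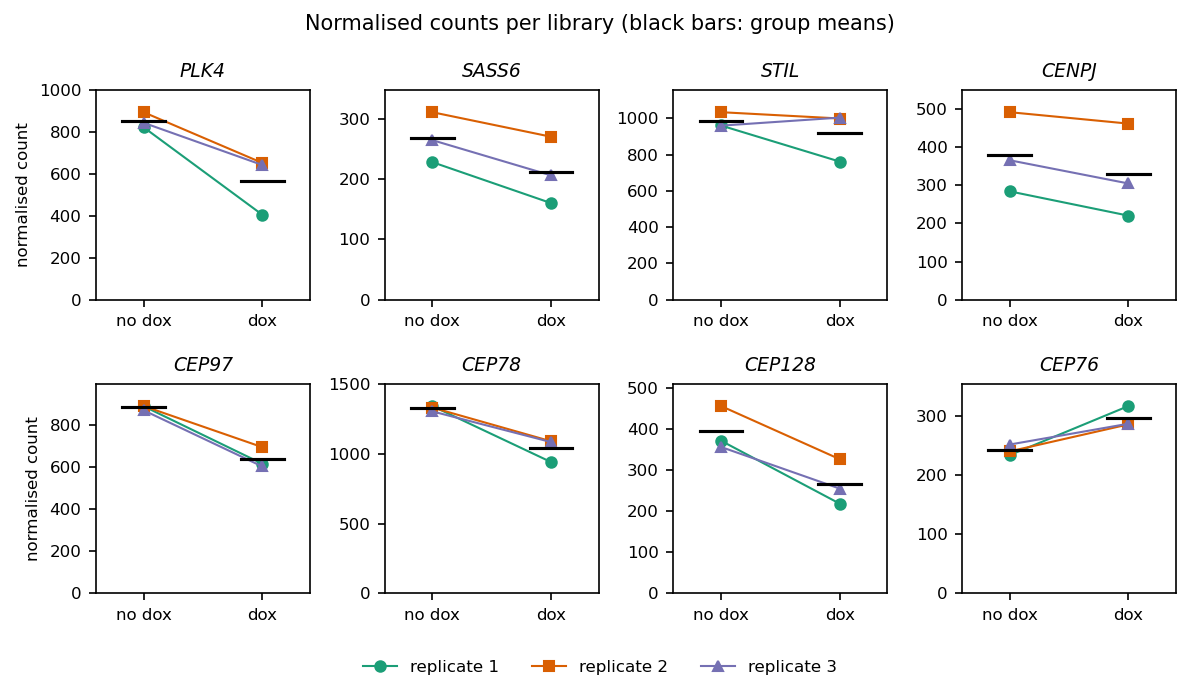
Normalised counts in each of the 6 libraries for PLK4, SASS6, STIL, CENPJ, CEP97, CEP78, CEP128 and CEP76; each point is 1 library, coloured lines join libraries of the same replicate number and black bars are group means. PLK4, CEP97, CEP78 and CEP128 lie lower in every dox library than in any no dox library, CEP76 lies higher, and in CENPJ the replicates lie further apart than the groups.

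Among the genes of centriole capping and length, CEP97 (ENSG00000182504; chromosome 3 from 101442769 to 101489406 of hg19), which with CCP110 caps the centriole end, had 617, 696 and 604 normalised counts in dox and 891, 892 and 872 in no dox. The no dox libraries lay within a narrow range, and all dox libraries were well below it. The means were 639 ± 49.8 and 885 ± 11.5 (SD, n = 3 each). Its change of -0.47 (SE 0.09, a fitted change of -27.9%) missed the threshold in the fit with no block (limma adjusted p = 0.0650), and CEP97 fell in the blocked fit (limma adjusted p = 0.000756; pairs -0.53, -0.36 and -0.53), and the authors' deposited table gives -0.46 with an adjusted p of 0.0274.

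CEP78 (ENSG00000148019; chromosome 9 from 80850978 to 80894606), a protein of the centriole wall, had 943, 1092 and 1086 normalised counts in dox and 1345, 1334 and 1307 in no dox. Again no library of 1 group reached the other. It fell with the block (-0.36, limma adjusted p = 0.00313; 0.113 without it), a fitted change of -21.9%.

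CEP76 (ENSG00000101624; chromosome 18 from 12661832 to 12702776), known as a brake on centriole reduplication, went the other way, with 317, 286 and 287 normalised counts in dox and 233, 239.8 and 251 in no dox. All dox libraries were above all no dox libraries. It rose with the block (0.29, limma adjusted p = 0.0398; 0.293 without it), but not in 4 of the 6 settings with the block. CEP120, which works with CENPJ in lengthening centrioles, lay at 0.01, with an interval with the block of -0.15 to 0.16.

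Among the genes of the appendages and the mother centriole, CEP128 (ENSG00000100629; chromosome 14 from 80943330 to 81425861), a subdistal appendage protein, had 218, 327 and 255 normalised counts in dox and 372, 456 and 356 in no dox. All dox libraries were below all no dox libraries, although replicate 2 was the highest of each group. It fell with the block (-0.58, block SE 0.09, limma adjusted p = 0.00168; 0.193 without it), with a fitted change of -32.9% and pairs of -0.76, -0.48 and -0.48.

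CEP350 (ENSG00000135837; chromosome 1 from 179923873 to 180084015), a large centriole protein that binds microtubules, had 1285, 1541 and 1257 normalised counts in dox and 1479, 1816 and 1513 in no dox. The groups overlapped, because dox replicate 2 exceeded no dox replicates 1 and 3, while the pairs were alike (-0.20, -0.24 and -0.27). CEP350 fell with the block (-0.24, limma adjusted p = 0.00686; 0.451 without it), in 3 of 6 settings, and its change was -0.14 if no dox replicate 2 was left out. CEP19 (ENSG00000174007; chromosome 3 from 196433148 to 196439164), a ciliogenesis factor at the mother centriole that CEP350 helps to recruit, had 127, 130.3 and 123 in dox and 157, 178 and 159.7 in no dox. The 2 groups did not overlap, and CEP19 fell with the block (-0.37, limma adjusted p = 0.0307; 0.258 without it), in 4 of 6 settings. Its values rest on 81 to 236 reads per library.

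The other 5 genes of this role did not pass. CEP89, a distal appendage protein, lay at -0.14, CEP170B at -0.11 and CEP170 at -0.10, each lower in all 3 pairs, with limma adjusted p of 0.0964, 0.101 and 0.114 with the block. CEP164, the distal appendage protein that starts ciliogenesis, lay at 0.13 (pairs -0.02, 0.30 and 0.11), and the anchoring protein NIN at -0.05. Of the 8 genes 3 fell and 0 rose with the block, with a median of -0.13.

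In the pericentriolar material and the gamma-tubulin complexes, CDK5RAP2 (ENSG00000136861; chromosome 9 from 123151147 to 123342448), which binds and activates gamma-tubulin complexes, had 1979, 2189.7 and 1932 normalised counts in dox and 2143, 2523 and 2281 in no dox. The groups overlapped only through dox replicate 2 and no dox replicate 1. It fell with the block by a small amount (-0.19, limma adjusted p = 0.0177; 0.445 without it). It was called in 3 of the 6 settings with the block, and its change was -0.12 if no dox replicate 2 was left out.

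TUBGCP2 (ENSG00000130640; chromosome 10 from 135093135 to 135125841), a core subunit of the small gamma-tubulin complex, had 4554, 4921 and 4896 normalised counts in dox and 5115, 5199 and 5158 in no dox. The groups did not overlap, but the fitted change was -7.17% (log2 change -0.11; limma adjusted p = 0.0941 with the block). TUBGCP3 (-0.16) and the targeting factor NEDD1 (-0.13) also had all dox libraries below all no dox libraries but missed the threshold (with the block, limma adjusted p = 0.0989 and 0.0634). TUBGCP4, a subunit of the ring complex, had 857, 953 and 899.8 in dox and 949.5, 1093 and 979 in no dox, with all pairs lower (-0.16; limma adjusted p = 0.0614 with the block). TUBGCP5 lay at -0.08, the scaffold PCNT at -0.10 and TUBGCP6 at 0.06. Of the 8 genes, 7 were below 0, and 1 fell and 0 rose with the block.

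In the centrosome linker, CEP68 (ENSG00000011523; chromosome 2 from 65283500 to 65314138), a filament protein of the linker, had 558, 687 and 649 normalised counts in dox and 455, 634 and 557 in no dox. The groups overlapped, and every pair was higher (0.30, 0.12 and 0.22). It rose with the block (0.21, limma adjusted p = 0.0440; 0.620 without it), in 2 of 6 settings, and its change was 0.082 if no dox replicate 1 was left out and 0.32 if no dox replicate 2 was. CEP250, the C-Nap1 anchor of the same linker, had 2146, 2253 and 1609 in dox and 1877, 2121 and 1560.4 in no dox, higher in all pairs, and did not pass (0.11; limma adjusted p = 0.142 with the block). Without no dox replicate 3 the CEP250 value was -0.010.

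The satellite scaffold PCM1, a large protein that gathers centriolar satellites, had 3102, 3688 and 3464 normalised counts in dox and 3012, 4039 and 3662 in no dox. No direction was shared by the pairs (0.04, -0.13 and -0.08), and the change was -0.06, with an interval with the block of -0.16 to 0.05. CEP290, a gate protein of the cilium base, had 593, 710.3 and 513 in dox and 567, 746 and 590.2 in no dox (-0.07; interval -0.22 to 0.09). CEP72, which works with these, had a change of 0.04 with a wide interval (-0.33 to 0.41) on 35 to 185 reads per library. None of the 3 satellite genes passed in either fit.

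Of the 6 genes known mainly by their CEP names, none passed. CEP70 lay at 0.17 and CEP85L at 0.22, with CEP85L higher in every dox library (434, 418 and 433 normalised counts) than in any no dox library (321, 388 and 401; limma adjusted p = 0.0989 with the block). CEP112 lay at -0.26, with dox replicate 3 (173) the lowest of its 6 values. CEP95, which overlaps DDX5, lay at 0.19 with unlike pairs (0.41, 0.32 and -0.15), CEP41 lay at -0.05, and CEP170P1 at -0.19 on 11 to 60 reads per library.

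The span of the replicate means, averaged over both groups, was set beside the size of the dox change. In 32 of the 44 members the span was the larger. A range over several means tends to exceed a difference between group means even where only noise is present. The share among all tested genes was not computed, so this count does not show that replicates differed as much as treatments. The median span was 0.29 on the log2 scale (0.25 over all tested genes) and the median size of the change 0.13 (0.12 over all genes). The widest spans were those of CEP152 (1.05), CENPJ (0.93), CEP95 (0.63) and SASS6 (0.60).

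The replicates shared an order in many of these genes. Replicate 2 was the highest of both groups in 30 members (68.2%), against 20.4% of all tested genes, and the lowest of both groups in 0, against 20.2%. Replicate 1 was the lowest of both in 18 members (40.9%, with 26.0% of all genes). The members are not independent of each other, and this share was not tested. What the numbers share is not given in the labels. The dox library of replicate 2 is also the deepest, with 49882123 reads. The no dox library of replicate 2 is the deepest of its group with 32280300, close to the 31307141 of no dox replicate 1. Replicate 3 is the shallowest of both groups (25148936 in dox and 15094498 in no dox) and was the lowest of both in 9 members (20.5%, with 16.9% of all genes). The part of depth was not tested.

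**Figure D3:**
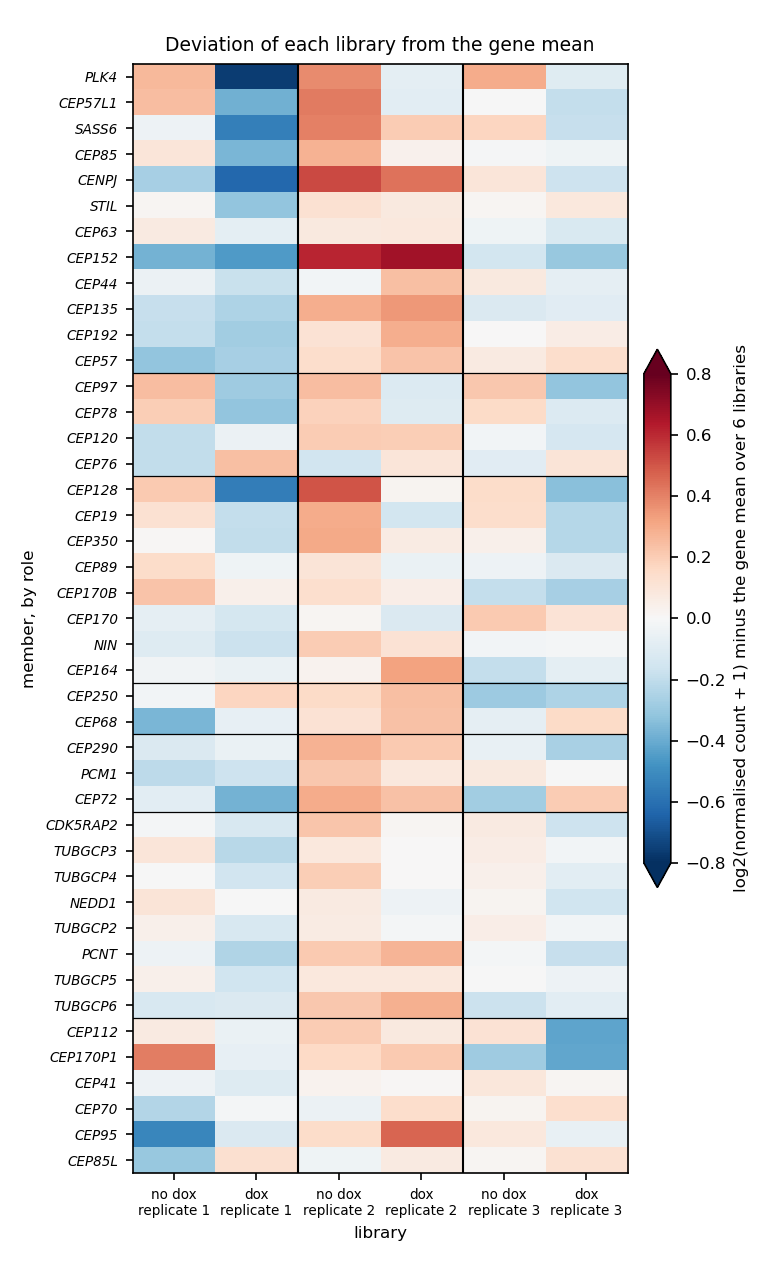
Log2 normalised count of 43 of the 44 members in each library, minus the member's mean over the 6 libraries, in rows by role and columns by library. Replicate 2 is the highest library of both groups in 30 of the rows, and the dox columns are lower than the no dox columns of the same number in all 3 pairs for 20 rows.

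Levels between genes are compared as CPM per kilobase of the longest GENCODE 29 transcript, since the widths behind the authors' FPKM were a median of 4.36 times longer than that transcript (1.53 to 9.48 times). A length was found for 43 members and not for TUBGCP5. Without doxycycline TUBGCP2 had the highest level, 40.9 ± 1.47 CPM per kilobase (SD, n = 3), above CEP170 at 21.0 ± 1.91. CEP57 (15.8 ± 2.82), NEDD1 (15.4 ± 0.737) and PCM1 (14.7 ± 2.45) came next with means close together. Within each no dox library CEP57 was above PCM1, while the place of NEDD1 changed between libraries. CDK5RAP2 had 12.7 and CEP170B 12.2 CPM per kilobase.

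The duplication core was expressed lower than the genes just named, but not all of it was low among the members. By level over the 6 libraries PLK4 and STIL ranked 11 and 12 of the 43 members with a length, and CENPJ and SASS6 35 and 39. Without doxycycline PLK4 had 7.59 ± 0.533 and STIL 6.43 ± 0.469 CPM per kilobase (SD, n = 3 each). CENPJ (2.60 ± 0.781), SASS6 (2.31 ± 0.413) and CEP152 (1.69 ± 0.693) lay lower. Their SDs include differences that the replicates share, and within each no dox library CEP152 was below both CENPJ and SASS6 per kilobase. CEP72 had 1.22 and CEP170P1 the lowest level, 0.231 ± 0.065. On the authors' FPKM scale, as means over all 6 libraries, TUBGCP2 was also the highest (7.91) and CEP170P1 the lowest (0.108). Over the 6 libraries the orders of the members on the 2 scales had a Spearman rho of 0.768 across genes. The median member had a mean of 1.18 FPKM over the 6 libraries, against 2.28 for all genes of the comparison table.

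**Figure D4:**
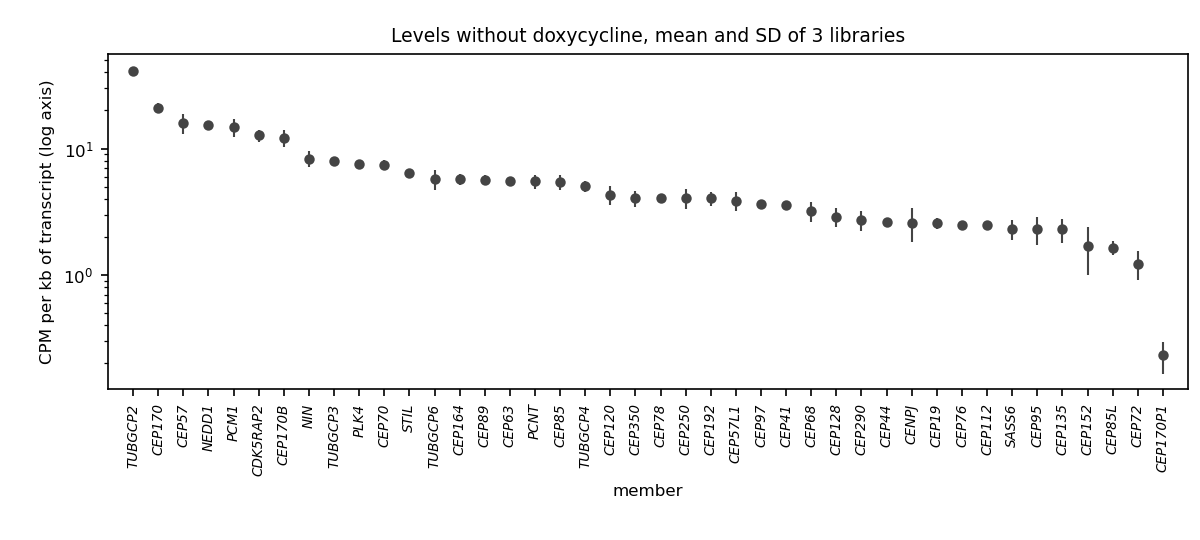
Level of 42 members without doxycycline, in CPM per kilobase of the longest transcript, on a log axis; points are the mean of 3 no dox libraries and bars the SD. Levels run from 0.231 for CEP170P1 to 40.9 for TUBGCP2, with PLK4 and STIL above CENPJ, SASS6 and CEP152.

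Other genes of the centrosome that the naming rule did not take were read from a list of 60, chosen with earlier results of these data known. Of the 60, 58 were tested, and HAUS7 and KIZ were not in the normalised table. Without the block 0 of 58 passed with limma, where 0.540% of all tested genes did. In that fit 16 had an unadjusted p under 0.05, as did 13.0% of all genes. The authors' deposited table calls 3 of the 58, and 2.78% of its genes. With the block 20 passed (34.5%, where 22.5% of all genes did). Of these, 19 were lower and 1 higher, where 12.4% of all genes fell and 10.2% rose. By group, 6 of 20 centriole assembly genes, 6 of 13 gamma-tubulin and augmin genes, 4 of 10 satellite genes and 1 of 5 regulators of centriole number fell. Of 10 appendage and linker genes 2 fell and 1 rose.

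CCP110, the partner of CEP97 in the centriole cap, had 778, 905 and 706 normalised counts in dox and 1178, 1314 and 1129 in no dox. The groups were far apart, and CCP110 fell with the block (-0.60, a fitted change of -34.2%; limma adjusted p = 0.000139, 0.0674 without it). CCNF, the cyclin that directs CCP110 to degradation, had 786, 1004 and 776 in dox and 1563, 1620.2 and 1176 in no dox, with no overlap. It fell by 0.76 with the block (limma adjusted p = 0.000191; 0.0805 without it). CEP97 and CCP110, the cap genes, were each lower in all 3 pairs, as was CCNF.

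SCLT1, a distal appendage protein, was the 1 gene of the list that rose, with 648, 782 and 637 normalised counts in dox and 439, 482 and 467 in no dox. Every dox library was above every no dox library (0.57; limma adjusted p = 0.000561 with the block, 0.0688 without it). The augmin subunit HAUS1 changed by -0.46, the daughter centriole protein CNTROB by -0.43 and the satellite and spindle pole protein SSX2IP by -0.31. Their limma adjusted p with the block were 0.00139, 0.00198 and 0.00236, and in none of the 3 did the groups overlap. The authors' deposited table calls CCP110 (-0.59, adjusted p 0.00213), CCNF (-0.76, 0.000224) and SCLT1 (0.58, 0.00876) and does not call HAUS1, CNTROB or SSX2IP.

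**Figure D5:**
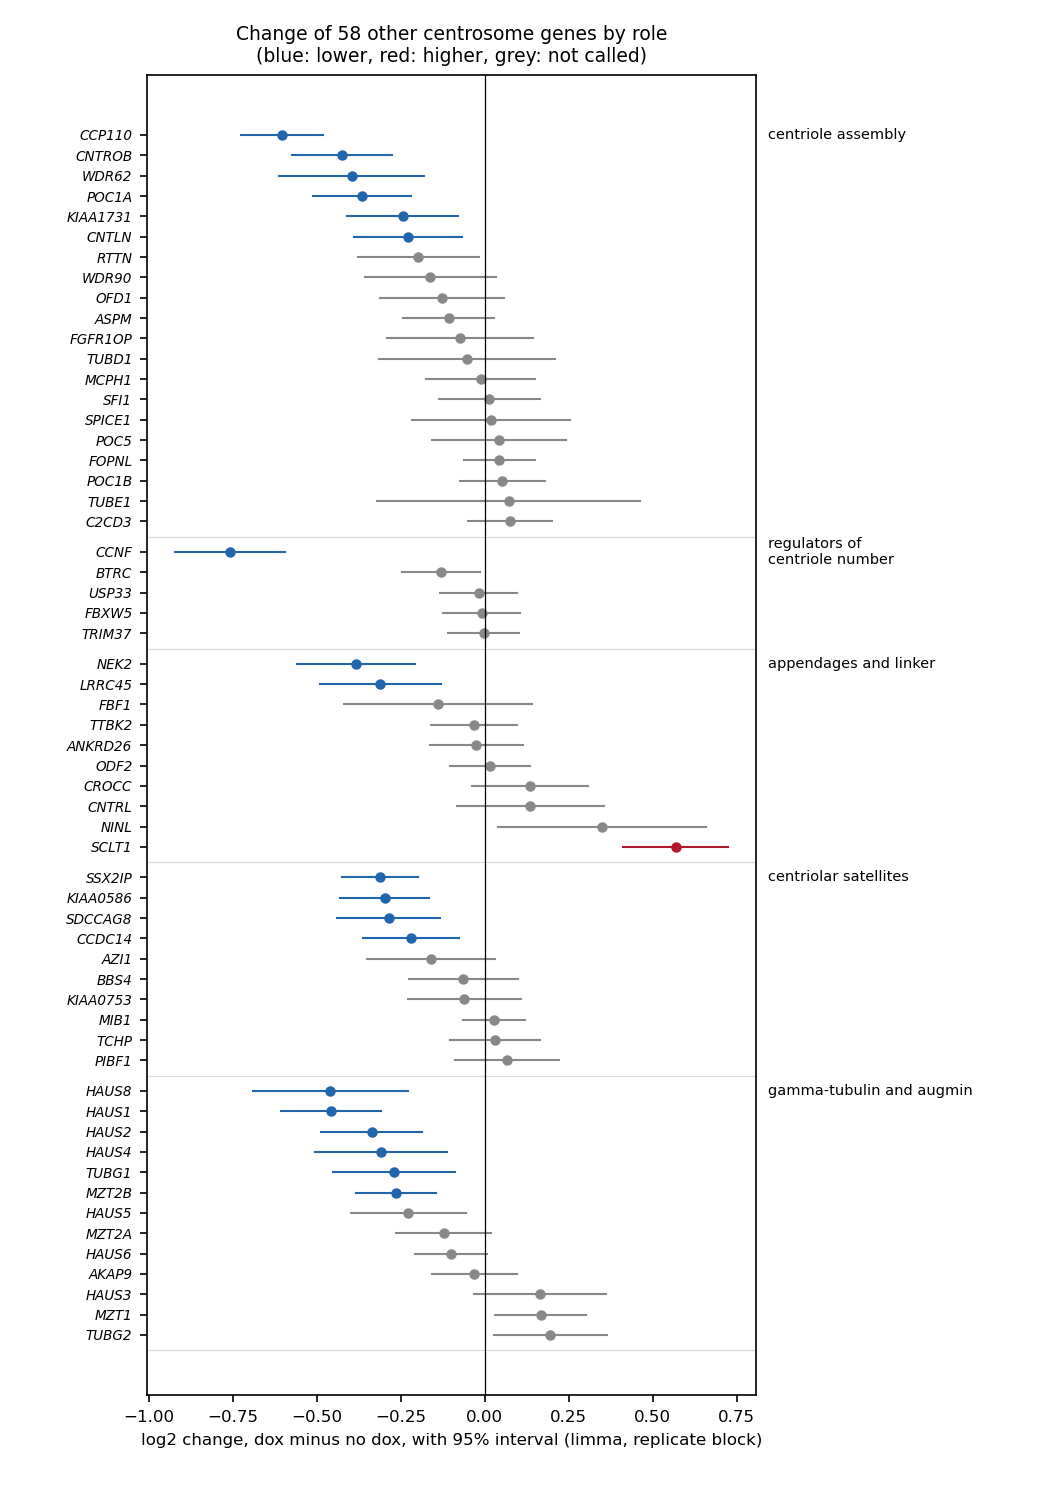
Change of the 58 other centrosome genes, dox minus no dox, on the log2(normalised count + 1) scale, by group; points are the values with the replicate block, bars its unadjusted 95% intervals, and coloured points passed the adjusted test. CCNF (-0.76) and CCP110 (-0.60) lie lowest of the called genes, and SCLT1 (0.57) is the 1 called higher.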

How the data were processed

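Polyadenylated RNA of 6 libraries (3 dox, 3 no dox) was measured, with groups and replicate numbers from the sample titles. The tools in the submitters' processing notes are bcl2fastq, Trimmomatic, TopHat and edgeR (no versions), and the build is hg19. Strand use in counting and the treatment of reads shared by copies or overlapping genes are not given in the sources used here.

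The authors deposited a normalised count signal for 13161 genes, FPKM for 57773, and a comparison table with CPM, log2 fold change, a likelihood ratio score, p-value and adjusted p-value, per the file headers. Each CPM was a whole multiple of 1 read (tolerance 0.01), which gave the library totals. In the deepest library this rests on 13 low values, and 3 libraries have fewer than the 100 that a stricter check needs, so reads and totals are estimates and no count model was used. FPKM uses gene widths longer than the longest transcript in all 43 members with a length.

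From the normalised counts limma 3.58.1 (R 4.3.3) fitted a trended prior to log2(normalised count + 1), with two-sided tests and no block (4 residual degrees of freedom), for the 13153 genes with at least 10 in at least 3 libraries. A gene was called at a Benjamini-Hochberg adjusted p under 0.05. Changes on this scale understate those of low genes. Across genes, the deviations from the group mean of the libraries sharing a number had correlations of 0.745, 0.726 and 0.768, so the numbers were taken as pairs and the block (2 residual degrees of freedom) is printed where it changes a call. Chi-square per degree of freedom between libraries was at least 16.0. The fits were tested on simulated data.

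Named were PLK4, STIL, SASS6 and CENPJ, every member called without the block, up to 3 called with it per role, at least 2 members per role, the highest and lowest by FPKM, and the 6 other pathway genes with the smallest p. Values of further members were chosen after they were seen. The members, lists and roles were chosen with earlier results of these data known. Promoters were matched by symbol to RefSeq (GRCh38.p14) and transcript lengths by gene ID to GENCODE 29, with Python 3.11.15, pandas 2.3.3, numpy 2.4.6 and matplotlib 3.10.9. The values of 1 member are not reported here.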

Additional observations from a re-analysis of the deposited data

How the results depend on the processing

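Alternatives without the block (pseudocounts of 0.25 and 5, no filter or a minimum of 50, log2(FPKM + 0.1), TMM and quantile scaling, each library left out) gave 0 members called in either direction and 0 other pathway genes, as did the test reported. With the replicate block the members counted 9 lower and 2 higher, and 20 other pathway genes passed. With the block and TMM scaling these counts were 9, 2 and 19, and with the block and FPKM 5, 0 and 12. Of all tested genes 22.5% passed with the block, 22.6% with TMM added and 15.8% with FPKM. Without replicate 1, 2 or 3 the blocked fit left 1 residual degree of freedom. The members that fell then numbered 13, 4 and 6, those that rose 1, 0 and 0, and the other pathway genes 24, 13 and 14. In those fits 29.2%, 10.8% and 13.5% of all tested genes were called, and 15.8%, 6.31% and 7.66% fell. Of the 11 members called with the block, 9, 4 and 5 were kept in those 3 settings, 5 with FPKM and 11 with TMM. The block ended no call, as none was made without it.

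The median change of the members (-0.09) ranged from -0.15 (dox replicate 2 left out) to -0.035 (dox replicate 1 left out) over the libraries, and was -0.055 if no dox replicate 2 was left out. With the block it was -0.056 without replicate 1 and -0.12 without replicate 2. Reversed directions, all of uncalled genes, were those of STIL, CENPJ and PCM1 without dox replicate 1 (0.025, 0.016 and 0.012), of STIL with the block and no replicate 1 (0.0079), of PCM1 and CEP290 if no dox replicate 2 was left out (0.038 and 0.052), of CEP290 without dox replicate 3 (0.043) and of CEP250 if no dox replicate 3 was left out (-0.010). Over the libraries left out, STIL ranged from -0.17 to 0.025, CENPJ from -0.52 to 0.016, PCM1 from -0.17 to 0.038, CEP290 from -0.19 to 0.052 and CEP250 from -0.010 to 0.26. The cause was not tested. Among values of single genes under alternatives, 384 kept direction and side of the threshold and 82 newly passed. The planned edgeR and DESeq2 tests on recovered reads were not run. Depth limits CEP170P1 (11 to 60 reads per library) and CEP72 (35 to 185) most.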
